A study of Zea mays with 12 samples.

Results

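Genes of the phosphate starvation response were followed in whole maize plants (Zea mays) that had or had not received BV-3, a strain of Bacillus velezensis. The rule that chose them used their annotation alone and no expression value, though it was set with earlier results of these data known. A gene was a member if its deposited NR or Swiss-Prot description named an SPX domain, an inorganic phosphate transporter, a PHO1 transporter, a purple acid phosphatase, a glycerophosphodiester phosphodiesterase, a sulfoquinovosyl transferase or phosphate starvation itself. The rule found 116 members among 52932 genes. They comprised 9 transcription factors named after PHOSPHATE STARVATION RESPONSE (PHR), 5 SPX proteins, 14 phosphate transporters (PHT), 7 PHO1 exporters, 5 SPX-MFS membrane proteins, 37 purple acid phosphatases, 15 glycerophosphodiester phosphodiesterases (GDPD) and 4 SQD2 enzymes. The other 20 were proteins named after ALTERED PHOSPHATE STARVATION RESPONSE 1 (APSR1), a name given for an Arabidopsis root growth mutant, and the name is what placed them here.

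Plants take up phosphorus as inorganic phosphate, and they hold it in the vacuole or send it to the shoot according to supply. When phosphate is plentiful, inositol pyrophosphates bind SPX domains, and SPX proteins then hold back the PHR factors. When it is scarce, PHR factors are released and switch on genes for uptake, for freeing phosphate from organic compounds outside and inside the cell, and for replacing membrane phospholipids with sulfolipid and galactolipid. In rice and Arabidopsis the transcripts of several SPX, purple acid phosphatase, GDPD and SQD2 genes are widely used as markers of phosphate shortage.

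The series held 12 libraries in 4 groups of 3. The groups were untreated control plants (CK) and plants given BV-3, each in a disease-susceptible and a disease-resistant class, and nothing in the sources used here describes a genotype beyond that class, a pathogen inoculation, the phosphate supply, the plants' age or the hour of harvest. The tissue was labelled as the whole body, and the titles of the control libraries add a code number for each class that is not explained. Beyond calling them separate biosamples, the sources used here do not say how the replicates were grown, so p-values measure the spread between these libraries.

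Library totals ran from 27036586 to 37843333 counts, and members took 0.235 to 0.373% of them. Of 246 genes that marked the susceptible class under BV-3, 98% were present in CK susceptible library 1 but 0.8 and 1.6% in the libraries labelled CK susceptible 2 and 3. Of 339 genes that marked the resistant class, those 2 libraries carried 94.4 and 95.0%, against 0.6% in library 1. They therefore went against their label, and most of the named fold changes that rest on them are given with and without them. Where a gene is said to be called or not called, the main edgeR fit is meant unless another tool or setting is named. That fit took all 12 libraries, with TMM scaling for library size. CK resistant library 2 also stood apart: its 66 leaf marker genes summed to 1539.7 FPKM (fragments per kilobase of gene model, scaled by the authors for library size), where the other 11 libraries had 12933.8 to 47050.2. Its 35 root marker genes had the highest sum, 594.3, but the list was mixed. That sum came mainly from Zm00001eb391690, Zm00001eb023070 and Zm00001eb391660, at 217.3, 210.6 and 100.5 FPKM. The Casparian strip genes of the list summed to 15.2 FPKM there, against 0.4 to 7.2 in the other libraries. Other root markers, among them Zm00001eb052890, Zm00001eb331330, Zm00001eb000450 and Zm00001eb074480, had their lowest value in that library. The transcripts of LHY, a clock gene that peaks near dawn, summed to 487.0 to 2954.1 FPKM in the BV-3 libraries and 73.9 to 255.1 in CK. Treatment and the state of the clock at harvest therefore cannot be told apart. The GIGANTEA genes of the same clock list did not separate BV-3 from CK. They summed to 310.1 FPKM in BV-3 susceptible library 3, which had the lowest LHY sum under BV-3, and to 6.5 to 22.7 in the others.

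Most groups of members were well represented in these plants, while the PHT transporters were mostly silent. All 4 SQD2 genes and all 5 SPX-MFS genes had a mean over the 12 libraries above 9 FPKM, as the lowest were 10.4 and 9.44. Of the 14 PHT genes, 10 had a mean below 1 FPKM, yet the most abundant member of all was a PHT gene. This was pht1 (Zm00001eb222510), named after rice PHT1-8, a root and shoot proton-phosphate importer, with 109.0 FPKM. The next were the SPX-MFS gene Zm00001eb378430 at 58.0 FPKM, the PHR3-type factor Zm00001eb227200 at 46.5 and the predicted inactive purple acid phosphatase 1 Zm00001eb036930 at 44.8. The median member stood at 5.25 FPKM. Of the 116 members, 96 passed the filter on low counts and were tested, 13 had some counts but too few, and 7 had none in any library. Members that passed only through the group where they were high had to differ, so counts over the 96 describe them and are not a test of the list.

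**Figure D1:**
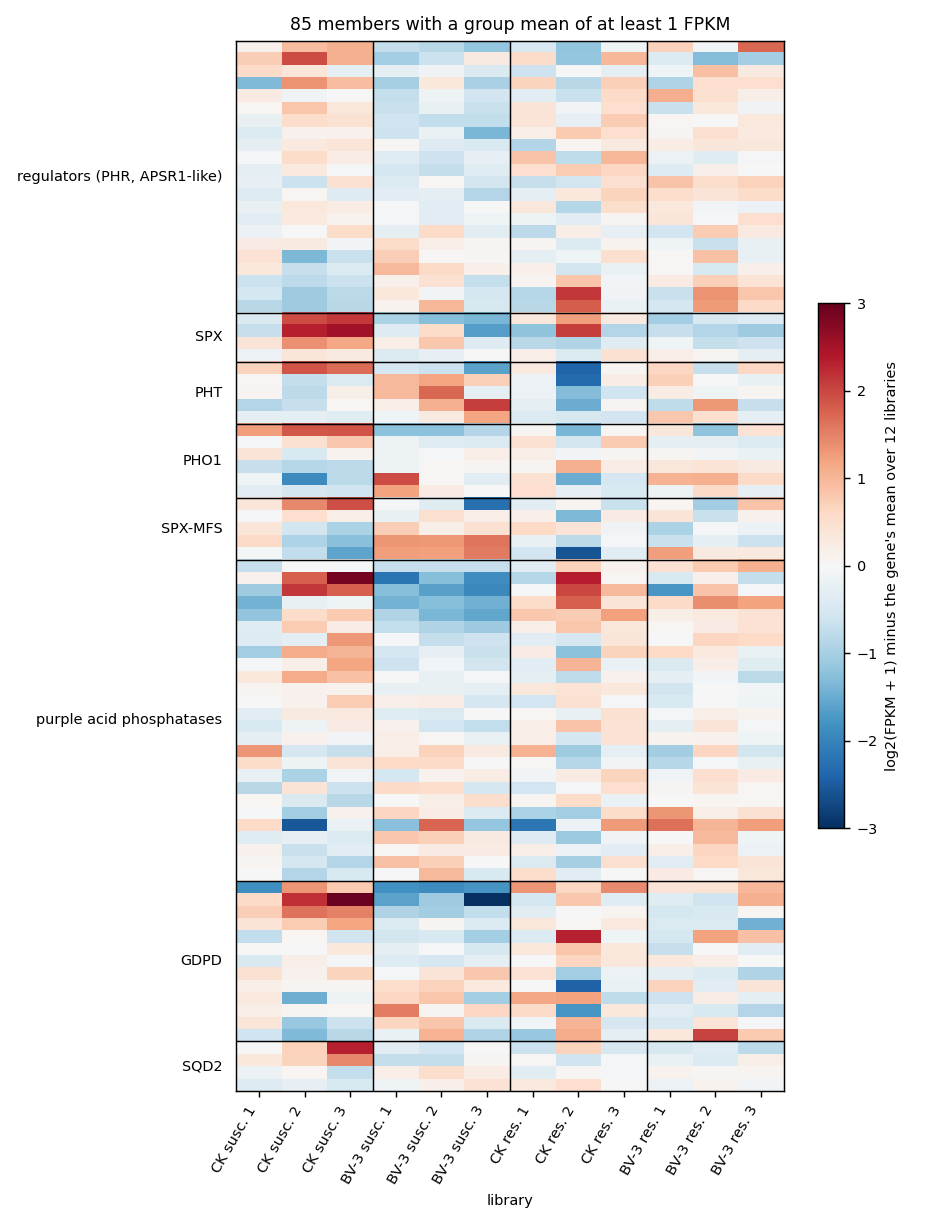
Level of the 85 members with a group mean of at least 1 FPKM in each of the 12 libraries, as log2(FPKM + 1) minus the gene's own mean, with rows grouped by role and, within a role, sorted by the fold change in the susceptible class. The libraries labelled CK susceptible 2 and 3 are dark red in several SPX, purple acid phosphatase, GDPD and SQD2 rows, and CK resistant 2 shares part of that colour and has dark blue PHT rows.

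The members were not spread evenly over the libraries. Among 85 members with a group mean of at least 1 FPKM, 14 (16.5%) had their highest value in the library labelled CK susceptible 3, against 4.39% of all 28836 genes with such a level. These 14 came from 7 roles, among them 2 SPX proteins, 4 purple acid phosphatases, 2 PHO1 exporters, 2 GDPDs and 2 of the 4 SQD2 genes. The library labelled CK susceptible 2 held the highest value of another 10 (11.8% against 8.33%). CK susceptible 1, the library that matched its label, held it for 2 (2.35% against 5.5%), and CK resistant 1 for 0 (0.0% against 3.75%). In CK resistant 2 the share of 20.0% lay below the 27.9% of all genes.

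The first comparison asked how plants of the susceptible class differed with BV-3. With all 12 libraries in 1 fit, 8 of 96 tested members fell under BV-3 and 0 rose (edgeR's quasi-likelihood test, Benjamini-Hochberg adjusted p under 0.05). Among all 34291 tested genes 3.9% fell and 2.3% rose. The 8 were an SPX protein, a PHO1 exporter, 3 GDPDs and 3 purple acid phosphatases. DESeq2 called 27 of 97 members, 6 higher and 21 lower, beside 19.2% of all genes, and its 27 included all 8. The median log2 fold change of the tested members was -0.33, and that of all genes 0.07.

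The count of 8 did not hold when most libraries were left out, and this was not particular to those labelled CK susceptible 2 and 3. Without them, CK susceptible 1 alone stood for the control, the fit called 0 of 98 members and 0 genes in all, and 0 members were higher and 4 lower at an unadjusted p under 0.05, beside 3.06% and 3.19% of all genes. That fit assumes that the lone control library varies like the other groups. Leaving out any single library other than CK susceptible 1 or CK resistant 2 took the count to 0 or 1. Libraries of the resistant class, which lie outside this comparison, were among them. The parts of fewer libraries and of the label in this loss were not tested. Without CK susceptible 1 it was 26 of 96 (27.1%), beside 19.5% of all genes, and without CK resistant 2 it was 24 of 96 (25%), beside 14.9%.

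Leaf markers moved with this comparison too. The 66 leaf genes summed to 34690.3 to 47050.2 FPKM in the libraries labelled CK susceptible and to 14833.4 to 30235.4 in BV-3 susceptible, with 10 to 18 and 17 to 18 of them at 0. The Rubisco small subunit genes, at 0 in none, summed to 4739.7 to 6276.7 and 1132.1 to 1973.5. The 35 root genes overlapped, at 171.6 to 364.6 and 109.0 to 351.3, with 9 to 22 and 15 to 20 at 0. Their part in the member results was not tested. In plants sampled whole, fewer cells of a type and less RNA per cell cannot be told apart.

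SPX1 (Zm00001eb386270), named after a rice repressor of PHR factors that is itself induced by phosphate shortage, had 4.72 FPKM in CK susceptible 1 and 28.8 and 32.6 in the libraries labelled CK susceptible 2 and 3. It had 2.96, 2.16 and 1.97 in BV-3 susceptible, 8.67, 17.3 and 8.22 in CK resistant, and 2.77, 4.51 and 4.89 in BV-3 resistant. Both CK groups lay wholly above their BV-3 groups. The log2 fold change in the susceptible class was -3.23 ± 0.63 (SE; edgeR adjusted p = 0.0398). Without the libraries labelled CK susceptible 2 and 3 it was -1.05 ± 0.53 (edgeR adjusted p = 0.82).

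The other SPX proteins were not called by edgeR, nor by DESeq2 between treatments. The SPX6-type gene (Zm00001eb162710) read 6.59, 60.7 and 68.9 FPKM in the libraries labelled CK susceptible, 8.44, 16.8 and 2.89 in BV-3 susceptible, 4.33, 50.8 and 5.71 in CK resistant and 6.58, 5.63 and 4.84 in BV-3 resistant. Its 3 high values were those of the libraries that stood apart, and CK susceptible 1 lay inside the BV-3 range. The fold change was -2.27 ± 1.05 on the log2 scale (edgeR adjusted p = 0.192), and it turned its sign to 0.46 ± 1.34 without the libraries labelled CK susceptible 2 and 3. The most abundant SPX gene (Zm00001eb205600), described as a partial SPX1, averaged 40.6 ± 13.5 FPKM (SD, n = 3) in the libraries labelled CK susceptible and 23.7 ± 9.98 in BV-3 susceptible, but 11.7 ± 2.76 and 13.8 ± 3.44 in the resistant groups. All 3 libraries labelled CK susceptible were above all CK resistant ones, with a log2 difference of -2.09 ± 0.39 (resistant minus susceptible; edgeR adjusted p = 0.274), which DESeq2 called (adjusted p = 0.000148). The highest values, 51.5 and 44.7 FPKM, came from the libraries that went against their label, and without them the difference was -1.47 ± 0.51 (edgeR adjusted p = 0.17). Between treatments its susceptible fold change was -0.78 ± 0.38, or -0.15 ± 0.54 without them. DESeq2 also called the low SPX3-type gene Zm00001eb048730 lower in the resistant class under CK (adjusted p = 0.0224).

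Among the 7 PHO1 genes, which export phosphate from cells and load it into the xylem, 6 were tested and 1 fell. The other 5 were split, with 2 below 0 and 3 above 0 in the susceptible class. The PHO1-3-type gene Zm00001eb281630 had 19.4, 30.0 and 30.3 FPKM in the libraries labelled CK susceptible and 2.59, 2.62 and 3.65 in BV-3 susceptible. It had 8.07, 2.28 and 7.85 in CK resistant and 9.68, 2.68 and 10.4 in BV-3 resistant. CK susceptible 1, which matched its label, was 5.32 times the highest BV-3 susceptible library, the widest such gap among the 8. The log2 fold change was -3.18 ± 0.62 (edgeR adjusted p = 0.0398), and -2.77 ± 0.79 without the libraries labelled 2 and 3 (edgeR adjusted p = 0.749).

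A gene of the same type had the opposite sign. The PHO1-3-type gene Zm00001eb030710 had 7.79, 6.85 and 7.21 FPKM in the libraries labelled CK susceptible and 11.8, 13.7 and 14.1 in BV-3 susceptible, with no overlap (log2 fold change 0.84 ± 0.28, edgeR adjusted p = 0.0862; 0.68 ± 0.44 without the libraries labelled 2 and 3). In the resistant groups it averaged 19.4 ± 8.10 and 17.0 ± 0.850. The most abundant PHO1 gene, Zm00001eb135290, stayed between 11 and 20.6 FPKM in every library, and its susceptible groups averaged 16.0 ± 4.81 and 15.4 ± 2.14. The PHO1-1-type gene Zm00001eb126380 was lower without overlap, at 2.73, 4.24 and 5.74 FPKM in the libraries labelled CK susceptible and 2.45, 2.01 and 1.84 in BV-3 susceptible (log2 fold change -1.03 ± 0.44, edgeR adjusted p = 0.162, and -0.44 ± 0.60 without the libraries labelled 2 and 3). The rice counterpart of the PHO1-2 type moves phosphate from root to shoot. The more abundant of its tested genes, Zm00001eb258520, had 10, 2.21 and 5.81 FPKM in the libraries labelled CK susceptible and 45.5, 11.3 and 8.68 in BV-3 susceptible, with overlap (log2 fold change 1.78 ± 0.77, edgeR adjusted p = 0.167, and 1.04 ± 1.06 without the libraries labelled 2 and 3). The low gene Zm00001eb191650 had 0.324, 0.182 and 0.0997 FPKM in the libraries labelled CK susceptible and 2.84, 0.957 and 0.662 in BV-3 susceptible. Its log2 fold change of 2.83 ± 0.91 was not called by edgeR (adjusted p = 0.0812; 2.12 ± 1.38 without the libraries labelled 2 and 3) but was by DESeq2 (adjusted p = 0.00883).

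GDPD enzymes split the head groups left from degraded phospholipids into glycerol phosphate and an alcohol. Of 14 tested GDPD genes 3 fell, 2 of them of the chloroplast GDPD1 type. Zm00001eb036910 had 14.5, 28.0 and 25.6 FPKM in the libraries labelled CK susceptible and 4.00, 3.53 and 4.58 in BV-3 susceptible. It had 6.36, 8.32 and 8.82 in CK resistant and 5.45, 5.76 and 8.76 in BV-3 resistant. All 3 control libraries were above the other 9, the label-matching library 1 included. Its log2 fold change, -2.48 ± 0.32, had the smallest adjusted p of any member (edgeR adjusted p = 0.0316), and it was -1.92 ± 0.39 without the libraries labelled 2 and 3 (edgeR adjusted p = 0.626).

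Zm00001eb241920, the most abundant GDPD gene and also of the GDPD1 type, ranged 129.0-fold over the libraries. It read 26.9, 84.5 and 146.5 FPKM in the libraries labelled CK susceptible, 5.15, 8.01 and 1.14 in BV-3 susceptible, 12.1, 31.7 and 13.7 in CK resistant, and 13.6, 11.4 and 38.2 in BV-3 resistant. The susceptible groups did not overlap, while the resistant ones did. The fall measured -4.19 ± 0.89 on the log2 scale (edgeR adjusted p = 0.0401), or -2.55 ± 0.94 without the libraries labelled 2 and 3 (edgeR adjusted p = 0.749). The remaining GDPD1-type gene, Zm00001eb085150, was lower under BV-3 in both classes with no overlap, at log2 fold changes of -1.18 ± 0.39 and -1.04 ± 0.39, but was not called by edgeR (adjusted p = 0.0873 and 0.443). DESeq2 called the first (adjusted p = 0.0295), which was -0.77 ± 0.54 without the libraries labelled CK susceptible 2 and 3.

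The GDPDL7-type gene (Zm00001eb206420) is of a GDPD-like family linked to the cell wall in Arabidopsis. It was the only member of the 8 in which CK susceptible 1 did not exceed every BV-3 susceptible library. It had 0.189, 9.66 and 6.38 FPKM in the libraries labelled CK susceptible, 0.215, 0.147 and 0.247 in BV-3 susceptible, and 4.60 to 10.5 in all 6 resistant libraries. CK susceptible 1 lay inside the BV-3 susceptible range, and the 2 libraries that went against their label lay in the resistant range. The called log2 fold change of -4.66 ± 1.01 (edgeR adjusted p = 0.0418) came to -0.0 ± 0.58 without those 2 libraries.

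Purple acid phosphatases free phosphate from organic esters with a metal pair that colours them, many of them outside the cell, while others are predicted to be inactive. Of 29 tested genes 3 fell. The PAP3-type gene Zm00001eb010130 had 9.69, 33.3 and 70.8 FPKM in the libraries labelled CK susceptible, 1.16, 3.06 and 1.68 in BV-3 susceptible, 4.43, 49.4 and 9.31 in CK resistant and 6.15, 9.98 and 4.98 in BV-3 resistant. CK susceptible 1 was 3.17 times the highest BV-3 susceptible library, and CK resistant 2 was far above its own group. On the log2 scale the fold change was -4.29 ± 0.97 (edgeR adjusted p = 0.0426), and -2.35 ± 1.00 without the libraries labelled 2 and 3 (edgeR adjusted p = 0.795).

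Its direct neighbour in the RefSeq gene order did not share this pattern. That gene, the PAP4 type Zm00001eb010140, stayed between 12.0 and 38.7 FPKM, and its susceptible groups overlapped (log2 fold change -0.29). The GDPD1-type gene Zm00001eb036910 was separated by 1 other gene from the most abundant phosphatase, Zm00001eb036930, whose libraries labelled CK susceptible read 98.2, 27.1 and 23.5 FPKM against 44.5, 62.6 and 46.5 in BV-3 susceptible.

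The PAP15-type gene (Zm00001eb064450), named after an Arabidopsis phytase, had 3.00, 35.4 and 28.3 FPKM in the libraries labelled CK susceptible and 2.47, 1.71 and 1.21 in BV-3 susceptible. It had 7.11, 32.5 and 15.3 in CK resistant and 1.49, 14.0 and 7.15 in BV-3 resistant. The label-matching library 1 was only 1.21 times the highest BV-3 susceptible library. Its fall was -3.61 ± 0.95 on the log2 scale (edgeR adjusted p = 0.0488), and -0.80 ± 0.97 without the libraries labelled 2 and 3 (edgeR adjusted p = 0.968).

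The predicted inactive purple acid phosphatase 1 Zm00001eb400210 had 6.96, 16.4 and 11 FPKM in the libraries labelled CK susceptible and 5.19, 4.50 and 3.86 in BV-3 susceptible, and 9.68 to 17.3 in the 6 resistant libraries. Its fall was the smallest of the 8, -1.32 ± 0.31 on the log2 scale (edgeR adjusted p = 0.043), and -0.68 ± 0.37 without the libraries labelled 2 and 3 (edgeR adjusted p = 0.829). As with the GDPDL7 type, the 2 libraries that went against their label lay inside the range of the resistant ones.

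**Figure D2:**
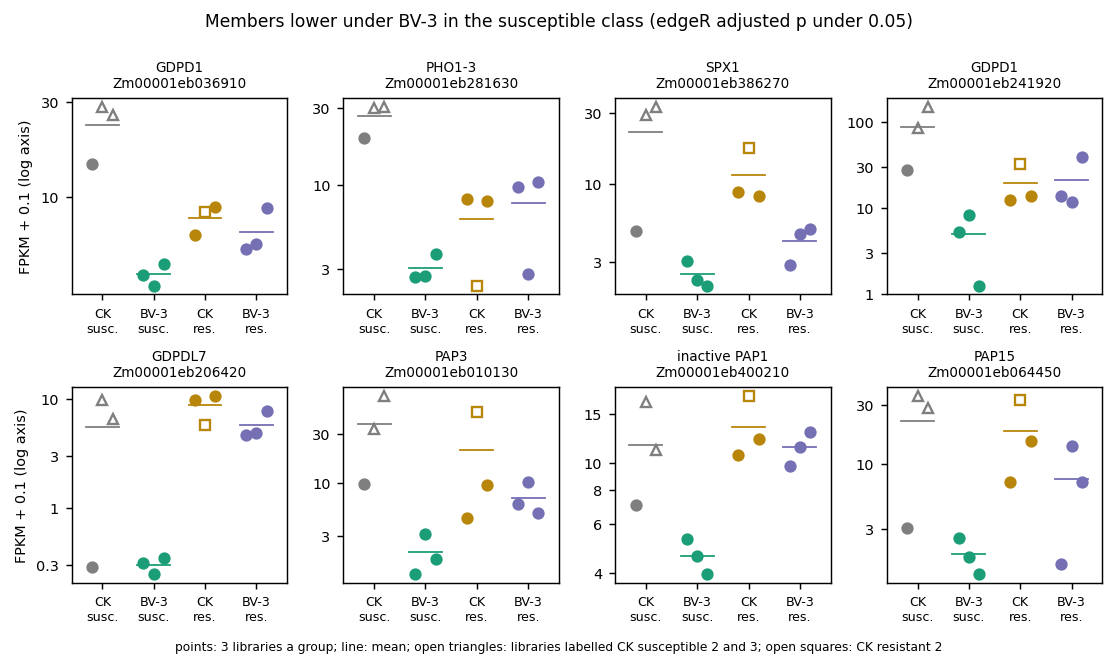
FPKM + 0.1 on a log axis for the 8 members called lower under BV-3 in the susceptible class, with 3 libraries a group as points and group means as lines. Open triangles are the libraries labelled CK susceptible 2 and 3, and the filled grey point is CK susceptible 1, which lies above all BV-3 susceptible points except in the GDPDL7 panel.

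On the lower side more members than genes at large had groups that did not overlap. In 24 of 96 tested members (25%) all 3 BV-3 susceptible libraries were below all 3 libraries labelled CK susceptible, beside 14.1% of all tested genes. All 3 were above in 16 members (16.7%), beside 18.6%, a share near the background. Set against the label-matching CK susceptible 1 alone, a comparison chosen after the values were seen, all 3 BV-3 susceptible libraries were below it in 29 members (30.2%) and above it in 21 (21.9%), beside 26.1% and 31.3% of all genes, so the share on the lower side then lay near the background. By role, the PHR-type regulators had the lowest median log2 fold change, -1.25 over 9 genes with 8 below 0, and the PHT transporters the highest, 1.36 over 8 genes with 5 above 0. One of these 8, pht6, had 0 counts in all 3 libraries labelled CK susceptible, so its fitted fold depends on the prior count, and without it the median was the value of pht1, 1.29.

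**Figure D3:**
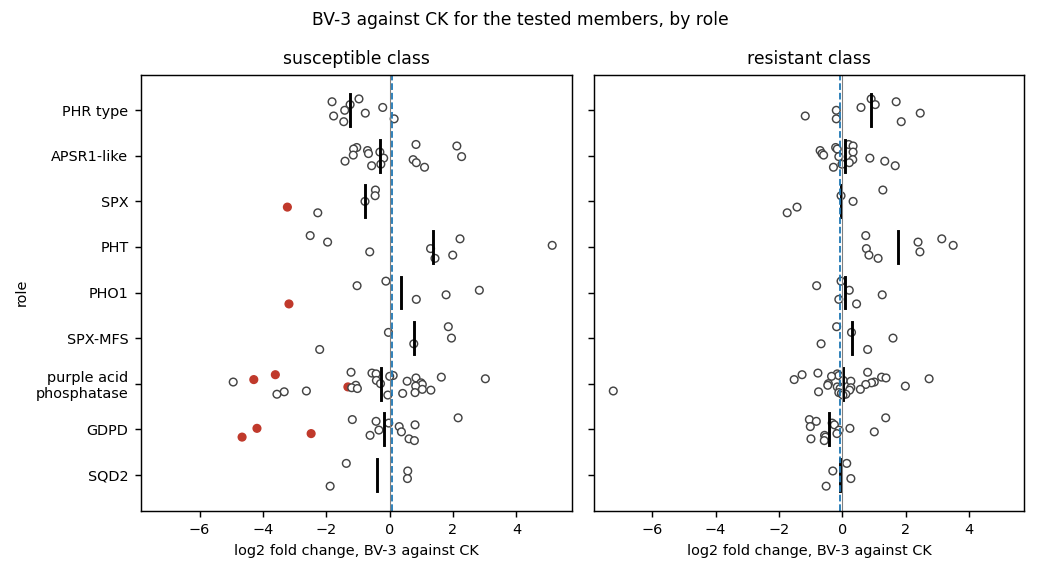
Log2 fold change of BV-3 against CK for the 96 tested members by role, in the susceptible (left) and resistant (right) class, from edgeR. Filled red points have an adjusted p under 0.05, short black bars are role medians, and the dashed line is the median of all 34291 tested genes, 0.07 and -0.07. All red points lie at negative values in the left panel.

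No transport member was called higher under BV-3 in the main edgeR fit. DESeq2 called 4 higher in the susceptible class, which were pht13, the PHO1-2-type Zm00001eb191650 and the SPX-MFS genes Zm00001eb073510 and Zm00001eb428590, beside the 19.2% of all genes that it called in either direction. The transport members that it called lower there included the PHT2-1 type, the PHO1-3-type Zm00001eb281630 and the OsI_08463-type SPX-MFS gene. The most abundant member, pht1, had 95.3, 56.9 and 68.8 FPKM in the libraries labelled CK susceptible and 184.7, 214.9 and 152.8 in BV-3 susceptible. It had 82.0, 17.8 and 109.3 in CK resistant and 154.6, 94.5 and 80.4 in BV-3 resistant. The susceptible groups did not overlap, the label-matching library 1 was the highest control, and the log2 fold change was 1.29 ± 0.58 (edgeR adjusted p = 0.183), or 0.90 ± 0.91 without the libraries labelled 2 and 3.

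Its relative pht2 (Zm00001eb047070) averaged 3.32 ± 1.55 FPKM in the libraries labelled CK susceptible and 13.6 ± 9.09 in BV-3 susceptible, again without overlap (log2 fold change 1.99 ± 0.77, edgeR adjusted p = 0.131; 2.55 ± 1.29 without the libraries labelled 2 and 3). pht13 (Zm00001eb087720) was higher under BV-3 in both classes without overlap, at a low level. It had 0.295, 0.283 and 0.216 FPKM in the libraries labelled CK susceptible, 0.422, 0.894 and 2.54 in BV-3 susceptible, 0.176, 0.125 and 0.0522 in CK resistant and 1.74, 1.16 and 0.302 in BV-3 resistant. The susceptible log2 fold change was 2.22 ± 0.85 (edgeR adjusted p = 0.128, DESeq2 adjusted p = 0.04), and 2.02 ± 1.35 without the libraries labelled 2 and 3. It lies in a run of 4 PHT genes that follow each other in the RefSeq order, and the other 3, pht3, LOC103646747 and pht12, did not pass 0.366 FPKM in any library.

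PHT2-1 moves phosphate into chloroplasts. The PHT2-1-type gene Zm00001eb245920 had 20.7, 49.4 and 42.3 FPKM in the libraries labelled CK susceptible, 8.54, 7.76 and 3.48 in BV-3 susceptible, 15.8, 1.6 and 13.2 in CK resistant and 19.8, 7.48 and 20.0 in BV-3 resistant. It was lower under BV-3 without overlap in the susceptible class only, and lowest in CK resistant 2, the library with the lowest leaf markers. The log2 fold change of -2.51 ± 0.77 was not called over all 12 libraries by edgeR (edgeR adjusted p = 0.0703), but was by DESeq2 (adjusted p = 0.0067). It was also called in an edgeR fit of the 6 susceptible libraries alone (-2.57 ± 0.47, edgeR adjusted p = 0.0435). With the libraries labelled CK susceptible 2 and 3 left out it was -1.7 ± 1.01 (edgeR adjusted p = 0.843).

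SPX-MFS proteins carry phosphate across the vacuolar membrane in rice. The 2 genes of the OsI_17046 type were higher under BV-3 in the susceptible class. Zm00001eb428590 had 19.7, 11.6 and 6.01 FPKM in the libraries labelled CK susceptible, 48.8, 48.0 and 60.8 in BV-3 susceptible, 13.2, 2.52 and 15.6 in CK resistant and 49.1, 24.5 and 24.9 in BV-3 resistant. Neither class overlapped (log2 fold change 1.95 ± 0.62 and 1.6 ± 0.61, edgeR adjusted p = 0.0761 and 0.443), and DESeq2 called the first (adjusted p = 0.0152).

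Its partner Zm00001eb073510 had 11.4, 3.43 and 2.5 FPKM in the libraries labelled CK susceptible, 20.1, 19.8 and 24.5 in BV-3 susceptible, 6.11, 3.81 and 7.15 in CK resistant and 4.24, 5.93 and 4.36 in BV-3 resistant. Here the higher values were in BV-3 susceptible, and the resistant groups overlapped (log2 fold change 1.85 ± 0.50 in the susceptible class, edgeR adjusted p = 0.0519). DESeq2 (adjusted p = 0.00521), both limma fits and edgeR with relative log expression scaling called it. Without the libraries labelled CK susceptible 2 and 3 the values of these partners were 1.36 ± 0.93 and 0.86 ± 0.41. The OsI_08463-type gene Zm00001eb250590 ran the opposite way, with 25.9 ± 13.0 FPKM in the libraries labelled CK susceptible and 5.70 ± 4.05 in BV-3 susceptible (log2 fold change -2.21 ± 0.75, edgeR adjusted p = 0.0928, DESeq2 adjusted p = 0.0203; -1.14 ± 0.97 without the libraries labelled 2 and 3). The most abundant of the 5, Zm00001eb378430, averaged 64.2 ± 12.9 and 62.8 ± 15.1.

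**Figure D4:**
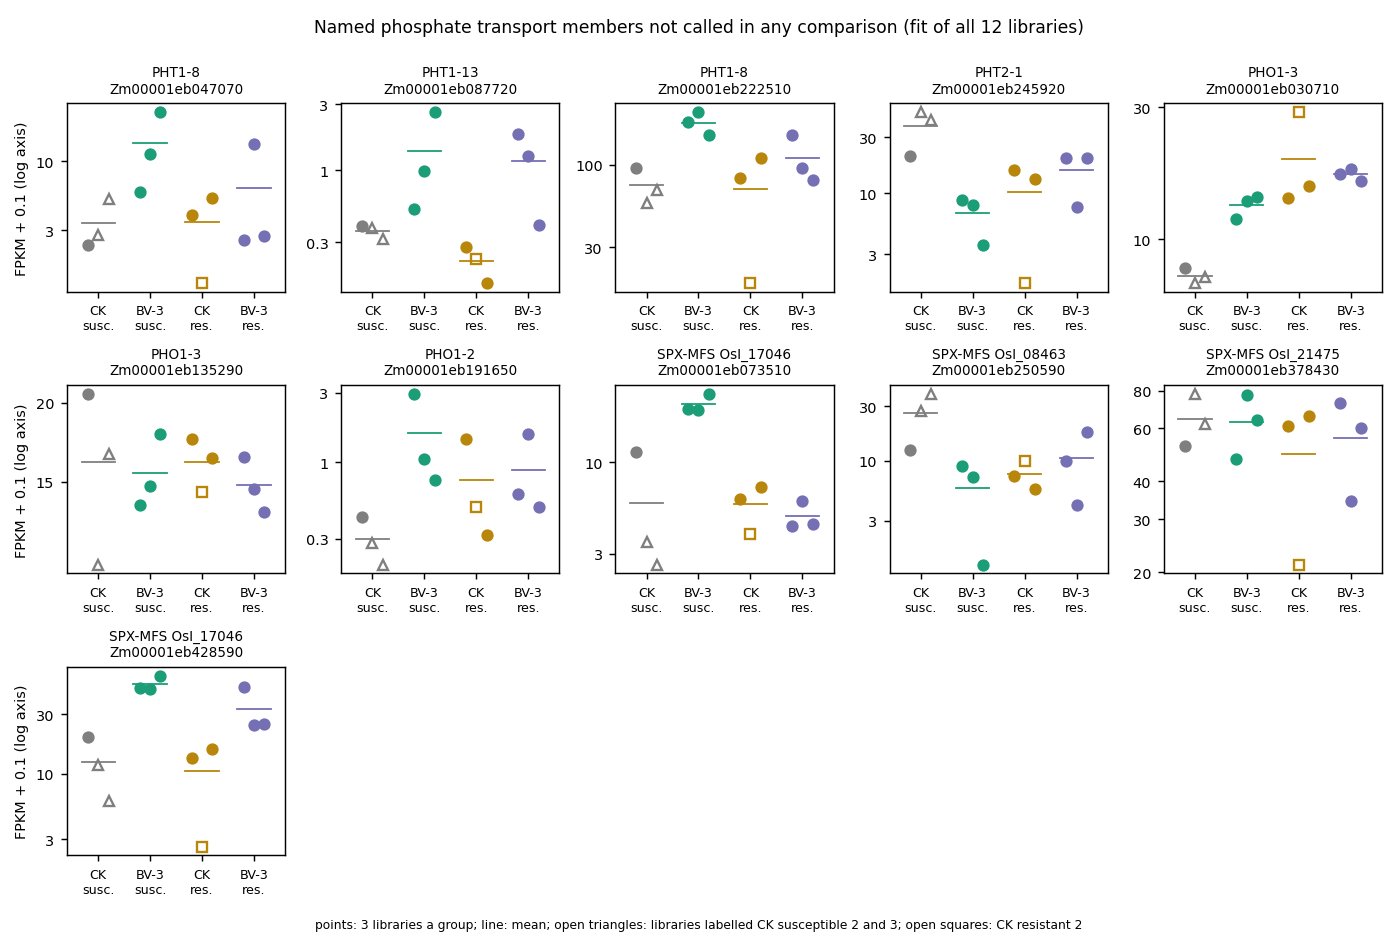
FPKM + 0.1 on a log axis for the 11 named PHT, PHO1 and SPX-MFS members that the main edgeR fit called in none of the 5 comparisons. Points are 3 libraries a group and lines are group means. BV-3 susceptible points lie above all CK susceptible points in the pht1 (Zm00001eb222510), pht2 and pht13 panels, in both OsI_17046 panels and in the Zm00001eb030710 and Zm00001eb191650 panels, and below them in the PHT2-1 and OsI_08463 panels.

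SQD2 makes sulfolipid, which replaces phospholipid in membranes when phosphate is short. The most abundant of the 4, Zm00001eb297970, had 31.8, 40.4 and 69.9 FPKM in the libraries labelled CK susceptible and 15.0, 14.9 and 26.5 in BV-3 susceptible, without overlap (log2 fold change -1.37 ± 0.39, edgeR adjusted p = 0.0587). Its value was -0.82 ± 0.47 without the libraries labelled 2 and 3 (edgeR adjusted p = 0.835). Zm00001eb335670 had 8.87, 15.0 and 48.9 against 6.91, 5.65 and 8.80, and its library 1 exceeded the highest BV-3 library by little. The fold change was -1.88 ± 0.60, and -0.44 ± 0.54 without the libraries labelled 2 and 3. The other 2 genes were on the opposite side, as in Zm00001eb398000, which averaged 10.7 ± 0.823 FPKM in the libraries labelled CK susceptible and 15.9 ± 3.36 in BV-3 susceptible (log2 fold change 0.57 ± 0.22, edgeR adjusted p = 0.134; 0.55 ± 0.37 without the libraries labelled 2 and 3). edgeR called no SQD2 gene, while DESeq2 called Zm00001eb297970 and Zm00001eb335670 lower (adjusted p = 0.00846 and 0.0195) and both limma fits called the former.

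The PHR-type factors, the MYB activators of the response, were not called by edgeR. DESeq2 called 2 of the 9 lower in the susceptible class, beside 19.2% of all genes in either direction. These were Zm00001eb227200 and Zm00001eb232000 (DESeq2 adjusted p = 0.00917 and 0.0221). The former is the most abundant. Zm00001eb227200, named after PHR3 and described as a PHL6 factor, had 41.8, 73.4 and 80.8 FPKM in the libraries labelled CK susceptible and 22.8, 20.9 and 16.5 in BV-3 susceptible. It had 27.4, 16.3 and 34.5 in CK resistant and 61.6, 35.6 and 126.7 in BV-3 resistant. Neither class overlapped, and it was the only member of the 96 tested with non-overlapping groups in opposite directions (1.04%, beside 0.747% of all genes). The log2 fold changes were -1.82 ± 0.55 and 1.70 ± 0.55 (edgeR adjusted p = 0.0693 and 0.391), and the first was -0.95 ± 0.72 without the libraries labelled CK susceptible 2 and 3. Their difference was 3.52 ± 0.78 (edgeR unadjusted p = 0.000911, adjusted p = 0.232), and DESeq2 called that difference (adjusted p = 0.00108). Leaving those libraries out gave 2.66 ± 0.89 (edgeR adjusted p = 1.0). Another gene of the PHR3 type, Zm00001eb232000, had log2 fold changes of -1.77 ± 0.59 and -1.17 ± 0.58, and the first was -1.19 ± 0.79 without those libraries. Among the 9 PHR-type genes 1 was above 0 in the susceptible class and 6 in the resistant class. Of these 9 genes, 3 share the symbol LOC100285165, so reads could have been split between them.

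Of the 20 APSR1-like genes 16 were tested. edgeR called 0, and DESeq2 called 4 in the susceptible class, beside 19.2% of all genes in either direction. Of these 4, Zm00001eb160590, Zm00001eb174640 and Zm00001eb262610 were lower and Zm00001eb331740 higher. The 2 with the smallest p were Zm00001eb160590, with 6.66, 12.0 and 11.3 FPKM in the libraries labelled CK susceptible and 4.93, 4.37 and 4.4 in BV-3 susceptible, and Zm00001eb174640, with 9.25 ± 2.86 and 4.31 ± 0.974. Both had no overlap in the susceptible class (log2 fold changes -1.14 ± 0.31 and -1.15 ± 0.32, edgeR adjusted p = 0.0539 and 0.0561), and edgeR with relative log expression scaling called both (adjusted p = 0.0462 and 0.0498). With the libraries labelled CK susceptible 2 and 3 left out they were -0.6 ± 0.43 and -0.71 ± 0.44.

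In the resistant class the same comparison called nothing. Of the 96 tested members 0 passed an adjusted p under 0.05, as did 0.0% of all genes (edgeR). At an unadjusted p under 0.05, 4 members were higher (4.17%) and 6 lower (6.25%), beside 4.94% and 5.13% of all genes. DESeq2 called 1 member, pht13, at a log2 fold change of 3.15 ± 0.85 (adjusted p = 0.0151), beside 2.73% of all genes. Groups did not overlap in 9 members on the higher side (9.38%) and 6 on the lower (6.25%), beside 7.71% and 9.46% of all genes. All 8 tested PHT genes had positive log2 fold changes, with a median of 1.76, but pht3, pht6 and pht9 never reached 1 FPKM in any library. The PHT genes also summed to only 21.1 FPKM in CK resistant 2, the library that stood apart. Their sums were 103.6 and 128.9 in the other CK resistant libraries and 106.3 to 181.6 in BV-3 resistant. Among 14 tested GDPD genes 11 had negative values, with a median of -0.43. SPX1 was lower in all 3 BV-3 resistant libraries (log2 fold change -1.43 ± 0.59, edgeR adjusted p = 0.47), and 1 of those CK values came from CK resistant 2.

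Across classes, 8 of 96 members (8.33%) had groups that did not overlap in the same direction under BV-3, beside 5.52% of all genes. They were higher for the SPX-MFS gene Zm00001eb428590, pht13 and the low PAP22-type gene Zm00001eb202100. They were lower for SPX1, the GDPD1-type Zm00001eb085150, the GDPD6-type Zm00001eb370370, the PAP27-type Zm00001eb369460 and the APSR1-like Zm00001eb262610. The last of these had 18, 27.1 and 21.2 FPKM in the libraries labelled CK susceptible and 14.8, 12.8 and 16.8 in BV-3 susceptible, and 31.2, 37.9 and 34.1 against 16.5, 24.5 and 21.7 in the resistant class. Of these 8, edgeR called SPX1, in the susceptible class, where DESeq2 also called Zm00001eb428590, pht13, Zm00001eb085150 and Zm00001eb262610.

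The difference between the classes in the BV-3 effect was tested directly. No member passed (0 of 96, beside 0.0% of all genes, edgeR). At an unadjusted p under 0.05 the effect was higher in the resistant class for 16 members (16.7%) and lower for 4 (4.17%), beside 8.71% and 4.96% of all genes. DESeq2 called 6 of 95 members, all with a higher effect in the resistant class, beside 5.19% of all genes in either direction. These 6 were both called GDPD1-type genes, the called PHO1-3 type, GDPDL7, PHT2-1 and the PHR3-type Zm00001eb227200. For Zm00001eb036910 the difference was 1.76 ± 0.51 without the libraries labelled CK susceptible 2 and 3. Over all 12 libraries it was 2.31 ± 0.43 (edgeR unadjusted p = 0.000219, adjusted p = 0.232). These values share the libraries labelled CK susceptible 2 and 3 with the first comparison, and without them edgeR called 0 of 98 again. At an unadjusted p under 0.05 there were then 5 members higher and 0 lower, beside 2.39% and 1.75% of all genes.

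Resistant and susceptible plants were then compared within each treatment. Under CK no member was called (0 of 96, beside 0.0% of all genes, edgeR). At an unadjusted p under 0.05 there were 5 higher (5.21%) and 15 lower (15.6%) in the resistant class, beside 7.78% and 9.58% of all genes. DESeq2 called 8 of 92 members, 1 higher and 7 lower, beside 5.04% of all genes. The control libraries that went against their label sit in this comparison. Without them edgeR called 1 of 98 members (1.02%), beside 3.72% of all genes. It was GDPDL7, higher in the resistant class by 5.05 ± 0.76 on the log2 scale (edgeR adjusted p = 0.0102).

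Under BV-3 all 6 libraries matched their class, and the call depended on which libraries set the spread. With all 12 libraries edgeR called 0 of 96 members and 0.0% of all genes, while at an unadjusted p under 0.05 there were 10 higher (10.4%) and 8 lower (8.33%), beside 9.93% and 12.0%. DESeq2 called 11 of 97 members, 7 higher and 4 lower, beside 13.5% of all genes. When the 6 BV-3 libraries were fitted alone, 4 of 92 members were called higher in the resistant class (4.35%) and 5 lower (5.43%), beside 6.86% and 9.98% of 31752 genes. Neither share was above the background.

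The 4 higher members were GDPDL7, the inactive PAP1 type Zm00001eb400210 and 2 predicted inactive phosphatases of the PAP16 type. GDPDL7 differed by 4.52 ± 0.42 on the log2 scale (edgeR adjusted p = 0.00214). The PAP16-type Zm00001eb070880 had 0.0182, 0.132 and 0.0 FPKM in BV-3 susceptible and 3.08, 6.24 and 5.36 in BV-3 resistant (edgeR adjusted p = 0.00723). Zm00001eb311530 had 0 counts in all 3 BV-3 susceptible libraries and 1.22, 1.77 and 2.42 FPKM in BV-3 resistant (edgeR adjusted p = 0.0115).

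The 5 lower members were 2 SPX-MFS genes, 2 GDPDs and a phosphatase. The SPX-MFS gene Zm00001eb073510 had the smallest adjusted p, with a difference of -2.34 ± 0.20 (edgeR adjusted p = 0.0018). The OsI_21475-type SPX-MFS gene Zm00001eb269520 had 28.8, 19.2 and 23.6 FPKM in BV-3 susceptible and 8.31, 16.4 and 14.8 in BV-3 resistant (-1.10 ± 0.27, edgeR adjusted p = 0.0341). The GDPDL4-type Zm00001eb034650 differed by -1.75 ± 0.42, the GDPD6-type Zm00001eb050070 by -1.18 ± 0.31 and the PAP27-type Zm00001eb086200 by -1.06 ± 0.28 (edgeR adjusted p = 0.0307, 0.0433 and 0.0415).

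Some members followed the class markers rather than the labels, but no more often than genes at large. In 7 members all 8 libraries with resistant markers, the 2 labelled CK susceptible included, were above the 4 with susceptible markers, and in 3 members all 8 were below. Those shares, 7.29% and 3.12%, compare with 8.22% and 6.6% of all genes. The clearest were GDPDL7, at most 0.247 FPKM in the 4 libraries and at least 4.60 in the 8, and the PAP27-type Zm00001eb292020, at most 0.573 and at least 2.37. The PAP16-type Zm00001eb070880 was at most 0.132 and at least 1.35, and Zm00001eb311530 was at 0.0 in all 4 and at least 0.303 in the 8. Genes that differ in sequence between lines can also lose counts where reads fail to map to the shared gene models, and absence of the transcript cannot be told apart from that. These libraries were grouped by markers found in the data, so the values are descriptive.

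**Figure D5:**
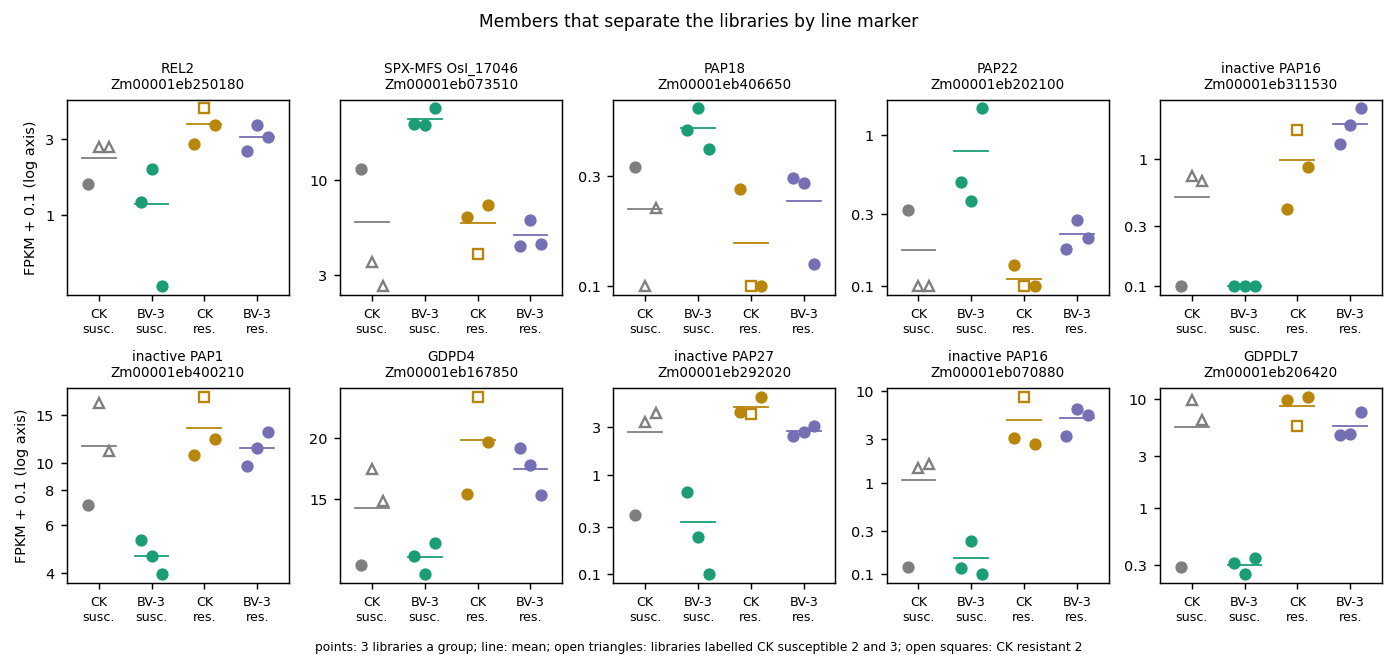
FPKM + 0.1 on a log axis for the 10 members in which the 8 libraries with resistant-class markers do not overlap the 4 with susceptible-class markers (CK susceptible 1 and the BV-3 susceptible libraries), with group means as lines. Open triangles, the libraries labelled CK susceptible 2 and 3, lie with the resistant groups in each panel, as the choice of these members required.

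Other genes of phosphate metabolism gave a mixed picture. Of 114 genes outside the members, on a list that covered inositol pyrophosphate kinases, the PHO2 enzyme, pyrophosphatases, galactolipid and phospholipid enzymes and organelle transporters, 90 were tested. In the susceptible class 2 rose and 5 fell under BV-3, beside 2.3% and 3.9% of all genes. In the other 4 comparisons edgeR called 0. DESeq2 called 21 in the susceptible class, 3 in the resistant class, 3 for the difference, 8 between classes under CK and 10 under BV-3, beside 19.2%, 2.73%, 5.19%, 5.04% and 13.5% of all genes.

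An inositol hexakisphosphate kinase of the type that makes the SPX ligands, Zm00001eb053420, had 68.1, 118.4 and 78.2 FPKM in the libraries labelled CK susceptible and 17.6, 18.2 and 19.5 in BV-3 susceptible. CK susceptible 1 was thus also far above every BV-3 susceptible library. Its log2 fold change was -2.25 ± 0.40 (edgeR adjusted p = 0.0394), and -1.92 ± 0.51 without the libraries labelled 2 and 3 (edgeR adjusted p = 0.749). A gene named after the E2 ubiquitin-conjugating enzyme 24, the PHO2 enzyme that in Arabidopsis marks phosphate transporters for breakdown, had 8.06, 59.2 and 28.5 FPKM against 5.22, 6 and 5.36 (Zm00001eb399020, log2 fold change -2.50 ± 0.56, edgeR adjusted p = 0.0426). It was -0.60 ± 0.46 without the libraries labelled 2 and 3.

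The inorganic pyrophosphatase 1 type Zm00001eb361620 had 4.93, 55.1 and 104.4 FPKM in the libraries labelled CK susceptible and 4.19, 3.56 and 2.26 in BV-3 susceptible. Its log2 fold change was -4.06 ± 0.93 (edgeR adjusted p = 0.0426), and -0.61 ± 0.73 without the libraries labelled 2 and 3. In the resistant class it read 3.26, 4.82 and 5.97 under CK and 23.9, 8.16 and 36.2 under BV-3, so its difference between classes was 6.48 on the log2 scale (edgeR unadjusted p = 0.000353, adjusted p = 0.232), or 3.04 ± 0.88 without those libraries. A phosphoethanolamine methyltransferase (Zm00001eb155940) and a non-specific phospholipase C2 (Zm00001eb140620), which act in phospholipid synthesis and breakdown, were the other falls, at -1.87 ± 0.46 and -1.90 ± 0.47 (edgeR adjusted p = 0.0444 and 0.0445). They were -1.48 ± 0.63 and -0.95 ± 0.56 without them. The 2 rises were a chloroplast anion transporter 2 type (Zm00001eb348140), from 5.33, 2.51 and 4.26 to 14.6, 21.4 and 10.5 FPKM, and a soluble inorganic pyrophosphatase (Zm00001eb348520), from 78.8, 39.9 and 45.5 to 123.9, 309.8 and 217.7 FPKM. Their log2 fold changes were 1.90 ± 0.40 and 1.96 ± 0.43, or 1.49 ± 0.57 and 1.41 ± 0.62 without them (edgeR adjusted p with all libraries = 0.0398 and 0.0419). Without the libraries labelled CK susceptible 2 and 3 none of these 7 genes was called, with edgeR adjusted p from 0.749 to 0.964.

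Of the 20 members that were not tested, 6 were PHT genes and 8 purple acid phosphatases. None of the 20 passed 0.462 FPKM in any library, and the highest count was 19. For the 7 without any count, 3 counts in a library is the limit that a count of 0 allows, which covers counting error only.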

How the data were processed

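The authors deposited 1 table for the series with a raw count and an FPKM value per gene and library, per the file headers. The submitters' processing notes name B73 RefGen v4 as the build, while the Zm00001eb gene identifiers belong to a later annotation. Which aligner and counter made the values, and with what strand setting, is not given in the sources used here. Libraries were poly(A)-selected and strand-specific, per the labels' protocols. With the counting settings unknown, reads of near-identical, overlapping or antisense genes may be split between them. No identifier matched the RefSeq gene table of Zm-B73-REFERENCE-NAM-5.0 (0 matched), so 105 members were matched by symbol, for gene order only, and no coordinates are given.

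Of 52934 lines, 2 named no gene and were dropped. Counts were tested with edgeR 4.0.16 in R 4.3.3 (quasi-likelihood, TMM, filterByExpr, 4 group means over 12 libraries, 34291 genes, common biological coefficient of variation 0.682), with Benjamini-Hochberg adjustment over all tested genes and a threshold of 0.05. FPKM describe levels. Alternatives used DESeq2 1.42.0, limma 3.58.1 on log2(FPKM + 1) and log2(FPKM + 0.1), other scalings and filters, a replicate block and left-out libraries. Chi-square values per gene between replicates of a group, 66.9 to 452.5, showed no library deposited more than once within a group. Libraries of different groups were not compared in this way. The test was checked on simulated counts with known changes.

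Named members are, per role, all called ones, up to 3 with the smallest p in BV-3 against CK at a mean of at least 1 FPKM, and the most abundant, as well as up to 8 called genes of the other list. Members of the 6-library fit, those without overlap in both classes, those that follow class markers, and the neighbours were named after their values were seen. The members and lists were chosen with earlier results of these data known.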

Additional observations from a re-analysis of the deposited data

Results flagged for a closer look

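The PHR3-type factor Zm00001eb227200 had BV-3 libraries wholly below CK in the susceptible class and wholly above CK in the resistant class. The difference of the log2 fold changes (resistant minus susceptible) was 3.52 ± 0.78, with an edgeR adjusted p of 0.232 and an unadjusted p of 0.000911, so it did not pass over all genes. Without the libraries labelled CK susceptible 2 and 3 it was 2.66 ± 0.89. Of the 96 tested members it was the 1 with this pattern (1.04%, beside 0.747% of all genes). In the resistant class its lowest BV-3 value, 35.61 FPKM, was close to the highest CK value, 34.55. The libraries labelled CK susceptible 2 and 3 held its highest control values.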

How the results depend on the processing

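Swiss-Prot names alone, scaling by relative log expression, no filter and both limma fits called 7 to 11 members in the susceptible class. These counts were within 1.5 times the 8 reported, beside 3.42 to 7.02% of all genes. Of the 8, that scaling called all 8, no filter 7 and the limma fits 5 and 6. The limma fits also called 2 and 1 members higher, and that scaling 1. DESeq2 called 27 members there, all 8 included, 1 in the resistant class, 6 for the difference, 8 between classes under CK and 11 under BV-3. Its shares of all genes were 19.2%, 2.73%, 5.19%, 5.04% and 13.5%. The replicate block called 3, beside 1.59% of all genes, and changed no other count of members. It rests on a shared number only, since same-numbered libraries correlated at -0.149 to 0.448. Fits of the groups compared only called 5 in the susceptible class, 3 of them among the 8, and 9 between classes under BV-3. Beside them stood 4.43% and 16.8% of all genes. Between classes under BV-3 limma called 6 and 7, beside 7.12% and 9.08% of all genes. Without the libraries labelled CK susceptible 2 and 3 the susceptible class had 0, the classes under CK 1 and under BV-3 5, and with CK resistant 2 left out as well 0, 1 and 11. All genes called between classes under BV-3 were 9.79% and 15.8% in these fits. With 1 library left out in turn, counts ran from 0 to 26 for the susceptible class, 0 to 8 for the difference and 0 to 7 between classes under BV-3. Each was highest without CK susceptible 1, where 19.5%, 5.84% and 11.8% of all genes were called. All genes called in the susceptible class numbered 2125, against 6866 by DESeq2, 546 with the block and 1332 with its 6 libraries alone. The cause was not tested. No fold change of the 8 turned its sign in 168 refits, of which 58 kept the call. That of GDPDL7, however, came to -0.0 ± 0.58 without the libraries labelled CK susceptible 2 and 3. Among 2744 refits of 132 uncalled values of named members, 102 had the other sign and 90 passed the threshold. A count of 0 at 3 libraries a group does not show that no member differed.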
